A study of Mus musculus with 10 samples.

Results

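The cancer-associated fibroblast genes examined here are Pdgfra, Pdgfrb, Fap, Thy1, Acta2, Postn, Dcn, Dpt, Clec3b and Rarres2. They were taken by gene symbol from a table of transcript levels, and make 10 of 52324 genes, carried by 49 of its transcripts. The tissue was subcutaneous tumour grown in mice from 4T1, a mouse mammary carcinoma line, and taken on day 14. RNA was sequenced in 10 libraries, 2 in each of 5 groups: negative control, given PBS according to the design text, Free-MK1775, Free-MK1775+NLG919, Lipo-MK1775 and Lipo-MK1775+NLG. MK1775 inhibits WEE1, a kinase that restrains entry into mitosis, and NLG919 acts on the IDO1 pathway of tryptophan breakdown. The design text names NLG919 for the last group too. Neither the labels nor the design text used here state the doses, what the free and Lipo forms consist of, the age or strain of the mice, or whether a group's libraries represent different mice. The p-values therefore measure only the spread between these samples, which may be technical.

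Fibroblasts build the collagen-rich matrix of connective tissue and of tumour stroma. In tumours some of them take on a contractile, matrix-making state marked by Acta2 and Postn, while others resemble the fibroblasts of healthy tissue, which are marked by genes such as Dpt and Clec3b. PDGF ligands drive fibroblast growth through Pdgfra and Pdgfrb, and TGF-beta drives the contractile state. In these whole-tumour libraries, fewer fibroblasts and less RNA of a gene per fibroblast cannot be told apart. The labels call the cells cancer cells, and epithelial markers were uneven. The keratin Krt8 was at 292 to 759 and Krt18 at 638 to 1093 rescaled FPKM in the 10 libraries. Other epithelial genes were lower, with Krt7 at 3.88 to 47.6, Cdh1 at 0.591 to 13.3 and Cldn4 at 0.127 to 8.55. Krt19 was at 0.409 to 2.16 and Cldn7 at 0 to 0.867. Epcam was at 0 to 12.2, and was listed at 0 in 2 libraries.

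Promoter sequences were available for 4 of the 10 genes, in RefSeq with build GRCm38.p6. They are shown for the 3 genes whose windows hold a searched motif, since Acta2 stayed within a narrow range across libraries while Dpt and Postn separated from each other. Each window runs from 250 bases before the start site to 50 after it, and capitals mark matches on either strand. Of the motifs searched, the core promoter element TATAAA was found in 13.6% of 32841 promoters of the same length. The core bound by TEAD factors, GGAATG, was found in 14.7% of them. The AP-1 element TGANTCA was found in 7.81%. The CArG box bound by SRF, allowing at most 1 G or C in its A/T middle, was found in 9.98%. No searched motif overlaps another in the windows shown. The TATAAA in the Dpt window lies after the start site, so it is given as a match of letters only, not as a working element. In the label of the Dpt window, TATA element means these letters and nothing more.
Acta2, chr19:34255324-34255623, minus strand, with 2 CArG boxes and a TEAD core: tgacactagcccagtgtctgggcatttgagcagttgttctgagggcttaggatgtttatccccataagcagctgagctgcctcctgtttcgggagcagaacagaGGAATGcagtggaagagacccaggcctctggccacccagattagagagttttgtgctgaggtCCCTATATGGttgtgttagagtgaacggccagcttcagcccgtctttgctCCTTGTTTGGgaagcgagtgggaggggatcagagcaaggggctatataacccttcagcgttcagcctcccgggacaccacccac
Postn, chr3:54360857-54361156, plus strand, with a TATA element 26 to 21 bases before the start: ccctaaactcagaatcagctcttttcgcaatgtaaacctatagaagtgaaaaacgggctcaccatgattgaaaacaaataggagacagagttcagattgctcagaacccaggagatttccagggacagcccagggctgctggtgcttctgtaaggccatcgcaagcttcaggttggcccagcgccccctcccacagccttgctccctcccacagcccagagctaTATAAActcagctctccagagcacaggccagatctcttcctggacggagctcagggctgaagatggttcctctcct
Dpt, chr1:164796413-164796712, plus strand, with a TATA element 12 to 17 bases after the start: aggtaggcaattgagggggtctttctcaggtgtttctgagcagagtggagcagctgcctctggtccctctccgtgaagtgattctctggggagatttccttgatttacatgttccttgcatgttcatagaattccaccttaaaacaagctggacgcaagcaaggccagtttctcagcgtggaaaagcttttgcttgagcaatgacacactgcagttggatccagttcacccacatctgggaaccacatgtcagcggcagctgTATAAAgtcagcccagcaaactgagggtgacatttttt
The Pdgfra window and a second Postn window held none of the motifs, which says only that these letters are not in those windows.

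Postn is also spliced in several forms, and the levels below rest on which of them were counted. The following coding exons of the 23-exon transcript ENSMUST00000081564, read from GRCm38, are both missing from the 21-exon transcript ENSMUST00000117373, which carried most of the Postn signal.
Postn exon 17, 81 bases, chr3:54380412-54380492, plus strand: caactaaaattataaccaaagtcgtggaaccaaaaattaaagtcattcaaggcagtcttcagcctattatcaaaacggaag
Postn exon 21, 84 bases, chr3:54385671-54385754, plus strand: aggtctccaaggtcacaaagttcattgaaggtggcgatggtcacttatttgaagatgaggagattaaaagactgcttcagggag

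The deposited unit was FPKM, which scales fragments by transcript length and library size. The mitochondrial part of all FPKM was 64.1% and 56.0% in the Lipo-MK1775 pair and 47.3% in the second Free-MK1775+NLG919 library, and 2.88% to 4.82% in the other 7. The values were therefore rescaled so that all other rows of a library sum to 1000000, and are called rescaled FPKM. Relative depth, judged from the smallest step between values, ran from 1 in Lipo-MK1775 replicate 1 to 1.96 in negative control replicate 1, and is not known in reads. Both Lipo-MK1775 libraries are of the high mitochondrial kind, so that share cannot be told apart from the treatment there. In Free-MK1775+NLG919 replicate 2, transcripts with few exons for their gene also held more of the signal, 6.63% against 3.41% to 4.17% elsewhere.

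**Figure D1:**
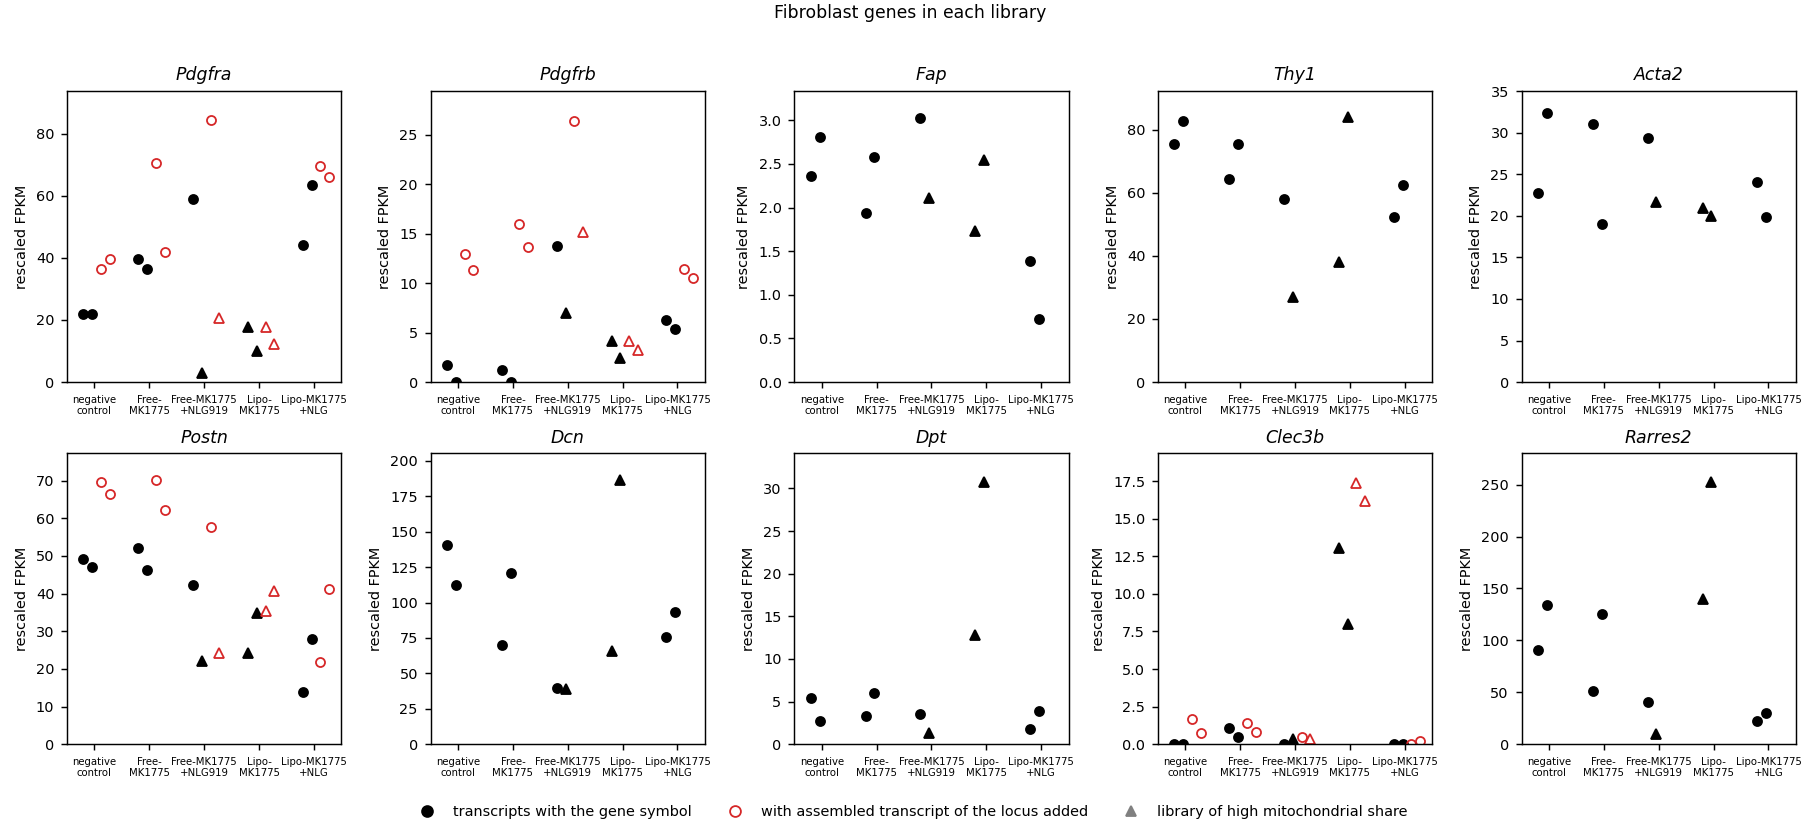
Level of each fibroblast gene (rescaled FPKM, linear axes from 0) in the 2 libraries of each of the 5 groups. Black points sum the transcripts with the gene's symbol, red open points add the assembled transcript of the locus where there is one, and triangles are the 3 libraries of high mitochondrial share. Dpt and Clec3b stand highest in both Lipo-MK1775 libraries, and Acta2 stays between 19.0 and 32.4.

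The receptors come first. Pdgfra, the PDGF receptor found on most fibroblasts (chr5:75312953-75358876, plus strand, GRCm39), was at 21.8 and 22.03 rescaled FPKM in the control, 39.6 and 36.4 in Free-MK1775, 58.9 and 3.03 in Free-MK1775+NLG919, 17.7 and 9.96 in Lipo-MK1775, and 44.2 and 63.4 in Lipo-MK1775+NLG. Both Lipo-MK1775+NLG and both Free-MK1775 libraries lay above both controls, both Lipo-MK1775 libraries lay below them, and the Free-MK1775+NLG919 pair spanned nearly the whole range. An assembled transcript of the same locus carries no symbol, and adding it gave 36.5 and 39.5 in the control, 70.6 and 42.0 in Free-MK1775, 84.3 and 20.6 in Free-MK1775+NLG919, 17.7 and 12.2 in Lipo-MK1775, and 69.7 and 66.04 in Lipo-MK1775+NLG. The Lipo-MK1775 pair was then the lowest of the 5 groups and did not overlap with any other. By symbol and scaled by the median of ratios, that pair overlapped with the control, at 26.3 and 14.4 against 17.1 and 17.9.

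Pdgfrb, the PDGF receptor shared by fibroblasts and pericytes (chr18:61178222-61218136, plus strand, GRCm39), changed its order of groups with the transcript summary. By symbol it was at 1.73 and 0 rescaled FPKM in the control, 1.20 and 0 in Free-MK1775, 13.7 and 6.94 in Free-MK1775+NLG919, 4.11 and 2.46 in Lipo-MK1775, and 6.25 and 5.38 in Lipo-MK1775+NLG. With the assembled transcript it was at 12.9 and 11.3 in the control, 16.0 and 13.7 in Free-MK1775, 26.4 and 15.2 in Free-MK1775+NLG919, 4.11 and 3.20 in Lipo-MK1775, and 11.4 and 10.5 in Lipo-MK1775+NLG. The assembled transcript held 86.6% and 100% of the Pdgfrb signal in the controls but 0% and 23.1% in Lipo-MK1775, so the control libraries were the lowest or near it by the first summary and well above Lipo-MK1775 by the second. No direction for Pdgfrb is drawn from the symbol alone.

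Among the surface markers, Fap, a membrane protease of activated fibroblasts (chr2:62331287-62404419, minus strand, GRCm39), was low throughout. It was at 2.36 and 2.81 rescaled FPKM in the control, 1.94 and 2.58 in Free-MK1775, 3.03 and 2.11 in Free-MK1775+NLG919, 1.73 and 2.55 in Lipo-MK1775, and 1.38 and 0.718 in Lipo-MK1775+NLG. Both Lipo-MK1775+NLG libraries were below the other 8. Thy1, a surface glycoprotein of fibroblasts that mouse T cells carry too (chr9:43954681-43959876, plus strand, GRCm39), was at 75.6 and 82.7 in the control, 64.4 and 75.6 in Free-MK1775, 58.1 and 26.9 in Free-MK1775+NLG919, 38.0 and 84.2 in Lipo-MK1775, and 52.3 and 62.5 in Lipo-MK1775+NLG. The Lipo-MK1775 pair held both a low value and the highest one, so it overlapped with every other group.

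Acta2, the smooth muscle actin of contractile fibroblasts and vessel walls (chr19:34218490-34232990, minus strand, GRCm39), was the steadiest of the 10. Its level was 22.8 and 32.4 rescaled FPKM in the control, 31.1 and 19.0 in Free-MK1775, 29.4 and 21.7 in Free-MK1775+NLG919, 20.97 and 20.05 in Lipo-MK1775, and 24.1 and 19.9 in Lipo-MK1775+NLG. The SD of its log2 value over all 10 libraries was 0.27, against 0.37 for Fap, 0.60 for Postn, 1.12 for Dpt and 1.42 for Clec3b. Over the 7 libraries of low mitochondrial share Thy1 was steadier, with an SD of 0.23 against 0.30 for Acta2. In rescaled FPKM both Lipo-MK1775 libraries lay below both controls, but only just. Scaled by the median of ratios they lay above both, at 31.1 and 28.9 against 18.0 and 26.2.

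Of the matrix genes, Postn, a matrix protein of wounds and tumour stroma (chr3:54268530-54298459, plus strand, GRCm39), was at 49.2 and 47.0 rescaled FPKM in the control, 52.0 and 46.2 in Free-MK1775, 42.3 and 22.2 in Free-MK1775+NLG919, 24.2 and 34.7 in Lipo-MK1775, and 14.0 and 27.9 in Lipo-MK1775+NLG. In rescaled FPKM, every library given the Lipo form was below every control and Free-MK1775 library. For Lipo-MK1775 this depended on the scaling, and 67.2% of all genes lay below both controls there. Scaled by the median of ratios, Postn was at 35.97 and 50.05 in Lipo-MK1775 and 38.72 and 38.07 in the control. Free-MK1775 was at 45.24 and 37.01, so these groups overlapped. Lipo-MK1775+NLG, at 10.96 and 23.19, stayed below them. With its assembled transcript added, Postn was at 69.6 and 66.3 rescaled FPKM in the control and 21.9 and 41.3 in Lipo-MK1775+NLG, again without overlap. Dcn, the collagen-binding proteoglycan decorin (chr10:97315471-97354005, plus strand, GRCm39), was at 141 and 112 in the control, 70.0 and 121 in Free-MK1775, 40.0 and 39.1 in Free-MK1775+NLG919, 65.9 and 186 in Lipo-MK1775, and 76.0 and 93.5 in Lipo-MK1775+NLG. In rescaled FPKM the Free-MK1775+NLG919 pair was the lowest and the closest together, and its second library is of high mitochondrial share. Scaled by the median of ratios, Dcn was at 34.6 and 60.0 in that pair. It then overlapped with Lipo-MK1775+NLG, at 59.6 and 77.8.

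Dpt, the matrix protein dermatopontin (chr1:164624213-164651835, plus strand, GRCm39), was at 5.44 and 2.77 rescaled FPKM in the control, 3.26 and 6.004 in Free-MK1775, 3.53 and 1.34 in Free-MK1775+NLG919, 12.9 and 30.7 in Lipo-MK1775, and 1.81 and 3.89 in Lipo-MK1775+NLG. Both Lipo-MK1775 libraries were above all 8 others, which overlapped with each other. Clec3b, the secreted plasminogen-binding protein tetranectin (chr9:122980011-122986497, plus strand, GRCm39), was listed at 0 in both controls, at 1.052 and 0.457 in Free-MK1775, 0 and 0.316 in Free-MK1775+NLG919, 13.04 and 7.98 in Lipo-MK1775, and 0 and 0 in Lipo-MK1775+NLG. It reached 1 rescaled FPKM in 3 libraries, and would not have passed the filter on low values, which asks for 2 of them, without the Lipo-MK1775 pair. Tests of Clec3b that involve Lipo-MK1775 are therefore given as a description, since it had to differ there. With an assembled transcript added it was at 1.68 and 0.717 in the control, 17.4 and 16.2 in Lipo-MK1775, and 0 and 0.201 in Lipo-MK1775+NLG, with the same 2 libraries on top.

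Rarres2, which encodes the attractant chemerin, a secreted ligand for receptors on immune cells (chr6:48546630-48549723, minus strand, GRCm39), was at 90.8 and 134 rescaled FPKM in the control, 51.0 and 126 in Free-MK1775, 41.0 and 10.2 in Free-MK1775+NLG919, 139 and 252 in Lipo-MK1775, and 22.6 and 30.3 in Lipo-MK1775+NLG. All 4 libraries given NLG919 were below all 6 that were not. In order of mean level over the 10 libraries the genes ran Dcn 94.5, Rarres2 89.7, Thy1 62.0, Postn 36.0, Pdgfra 31.7, Acta2 24.1, Dpt 7.16, Pdgfrb 4.18, Clec3b 2.29 and Fap 2.12 rescaled FPKM. Neighbours in this order overlapped in range, and Pdgfra ranged from the first place to the seventh in single libraries.

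Among the comparisons with the control, fibroblast genes were called in that of Lipo-MK1775. Dpt rose from a mean of 4.10 ± 1.89 to 21.8 ± 12.6 rescaled FPKM (SD, n = 2 each), and Clec3b rose from 0 in both controls to 13.04 and 7.98. On the scale of log2(value + 1) the difference was 2.09 ± 0.58 (SE) for Dpt and 3.49 ± 0.36 for Clec3b, with adjusted p = 0.0398 and 0.0127 in limma, a two-sided moderated test adjusted over 15469 genes. The Clec3b difference is no fold, since the controls are listed at 0, and with the assembled transcript it was 3.05. A threshold of 0.05 on the adjusted p called 21.0% of all genes in this comparison, 1.62% higher and 19.4% lower, and none of the 10 was called lower. Of the 2 called higher, nothing is read from Clec3b, and Dpt is 1 of the other 9. The Dpt call was lost with a pseudocount of 0.1 (adjusted p = 0.0514 in limma), without the filter on low values (0.0816) and with the replicate number as a block (0.0531).

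The other 8 genes did not pass the test in that comparison. Postn differed by -0.71 ± 0.41 (adjusted p = 0.2), Pdgfra by -0.68 ± 0.98, Thy1 by -0.47 ± 0.43, Acta2 by -0.39 ± 0.34, Fap by -0.20 ± 0.36, Dcn by -0.18 ± 0.46 and Rarres2 by 0.76 ± 0.64. The median of all 15469 genes was itself at -0.78, so relative to it Postn stood at 0.07, Acta2 at 0.39, Rarres2 at 1.54, Dpt at 2.87 and Clec3b at 4.27. Scaling by the median of ratios, which moves the middle of all genes to -0.07, gave 2.87 for Dpt and 4.00 for Clec3b, both called, and put all 10 genes above 0, with Postn at 0.14, Pdgfra at 0.15, Thy1 at 0.39, Fap at 0.42, Acta2 at 0.45 and Dcn at 0.69. That scaling also changed the split of calls over all genes from 251 higher and 3000 lower to 435 higher and 395 lower. Pdgfrb was higher by 1.35 by symbol and lower, at -1.499, with its assembled transcript (adjusted p = 0.0134 in limma).

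By position alone, both Lipo-MK1775 libraries lay above both controls for Dpt, Clec3b, Rarres2 and, by symbol, Pdgfrb, 4 of 10 where 8.40% of all genes did so. Of these, Clec3b entered the test only through Lipo-MK1775. With its assembled transcript Pdgfrb was at 4.11 and 3.20 against 12.9 and 11.3 rescaled FPKM, below both controls. The count of 4 is therefore not read against that share. Both Lipo-MK1775 libraries lay below both controls for Pdgfra, Postn and Acta2, 3 of 10 where 67.2% did. Scaled by the median of ratios none of these 3 did. Acta2 then lay above both controls, and Pdgfra and Postn overlapped with them.

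Single libraries decided some of these calls. Dpt kept its direction whichever library was left out, with differences of 1.49 to 2.69, but stayed called in 2 of 10 such fits, those without either Free-MK1775+NLG919 library. Its adjusted p was 0.111 without Lipo-MK1775 replicate 1, 0.162 without replicate 2, and at most 0.173 in all of them. Clec3b stayed called in 7 of 10, and its adjusted p was 0.128 without negative control replicate 1, 0.0626 without replicate 2 and 0.0514 without Lipo-MK1775 replicate 1.

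**Figure D2:**
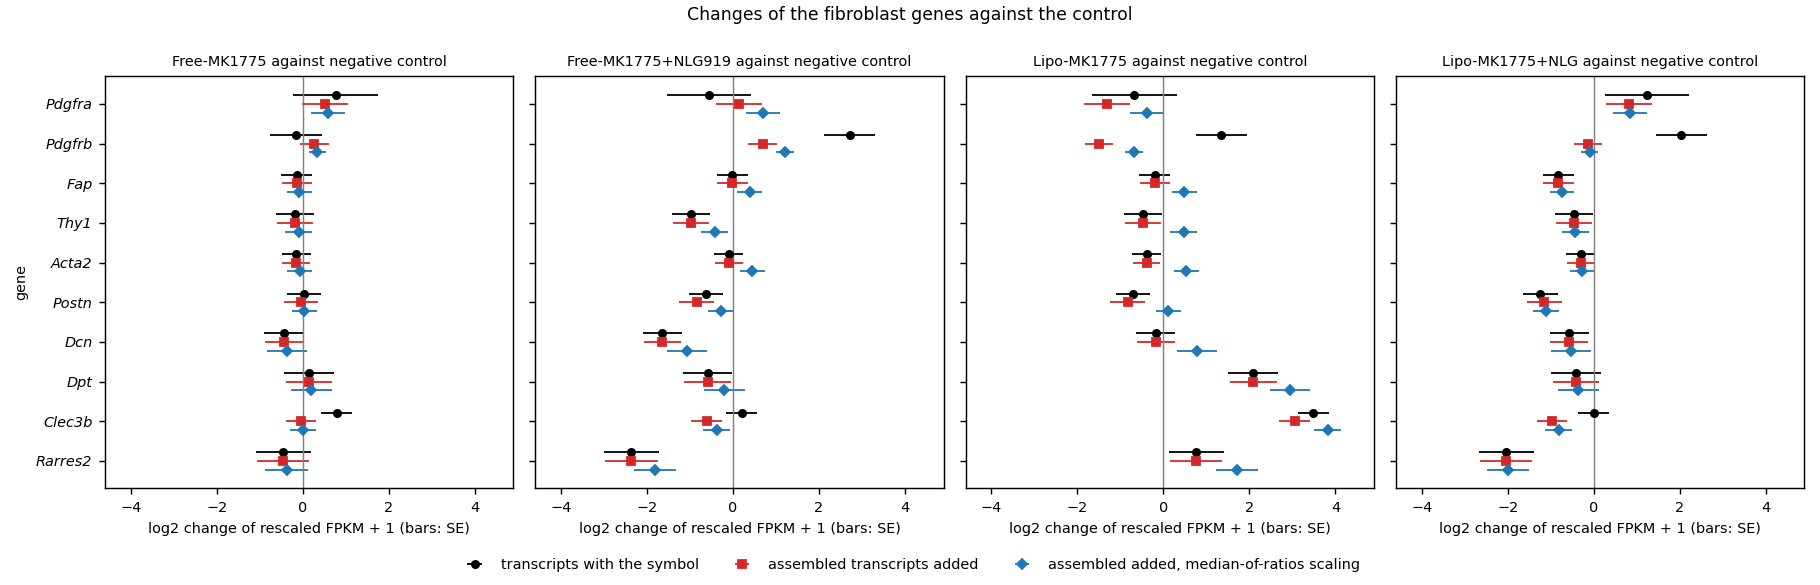
Difference of each fibroblast gene from the control in the 4 treated groups, as log2 of rescaled FPKM + 1 with the SE from limma as bars, for transcripts with the symbol (black circles), with assembled transcripts added (red squares) and with median-of-ratios scaling on top (blue diamonds). In Lipo-MK1775, Dpt and Clec3b lie above 2 by all 3, Pdgfrb changes side with the assembled transcripts, and Fap, Thy1, Acta2, Postn and Dcn change side with the scaling.

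Lipo-MK1775+NLG against the control had no high mitochondrial library on either side, and its median over all genes was -0.02. None of the 10 genes passed the test, where limma called 1 of 15469 (0.00646%). With unadjusted p under 0.05 there were 3 of the 10 and 390 of all genes. Rarres2 fell short of the threshold with a mean of 26.5 ± 5.48 against 112.6 ± 30.8 rescaled FPKM, a difference of -2.04 ± 0.64, and Postn with 20.9 ± 9.83 against 48.1 ± 1.58, a difference of -1.24 ± 0.41 (adjusted p = 1 for both in limma). Leaving out single libraries moved the Postn difference between -0.77, without Lipo-MK1775+NLG replicate 1, and -1.71, without replicate 2. Pdgfrb was higher by 2.04 by symbol, and stood at -0.13 with its assembled transcript.

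By direction alone, 7 of the 10 were lower in Lipo-MK1775+NLG than in the control, and Clec3b was listed at 0 in all 4 libraries. Both libraries lay below both controls for Postn, Rarres2, Fap, Dcn and Thy1, which is 5 of 10 where 23.4% of all genes did so. Both lay above for Pdgfra and, by symbol, Pdgfrb, 2 of 10 where 20.7% did. With its assembled transcript Pdgfrb was at 11.4 and 10.5 against 12.9 and 11.3 rescaled FPKM, and overlapped with the control. Pdgfra had a mean of 53.8 ± 13.5 against 21.9 ± 0.194 rescaled FPKM, a difference of 1.24 ± 0.98 that did not pass, and 67.9 ± 2.56 against 38.0 ± 2.15 with its assembled transcript.

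No fibroblast gene was called against the control in either group given the free form. In Free-MK1775 this stood beside 0.0129% of all genes, and the differences ran from -0.46 for Rarres2 to 0.79 for Clec3b. Both libraries lay above both controls for 2 of the 10 (Pdgfra and Clec3b, beside 13.1% of all genes) and below for 1 (Thy1, beside 20.2%). Thy1 was nearly tied, at 75.59 in Free-MK1775 replicate 2 against 75.64 in negative control replicate 1. Under median-of-ratios scaling these groups overlapped for Thy1. In Free-MK1775+NLG919 the absence of calls among the 10 stood beside 0.0194% of all genes called. There Dcn (-1.64 ± 0.46), Rarres2 (-2.36 ± 0.64) and, by symbol, Pdgfrb (2.71 ± 0.60) had unadjusted p under 0.05. Their adjusted p was 0.158, 0.149 and 0.133 in limma. Both libraries lay below both controls for Dcn, Rarres2, Thy1 and Postn, 4 of 10 where 40.7% of all genes did so, and above for Pdgfrb, 1 of 10 where 9.87% did. The median of all genes was -0.44. The fit without Free-MK1775+NLG919 replicate 1, which leaves the high mitochondrial library as the only one of its group, called 4 of the 10 here and 6421 genes in all. That lone library is then assumed to vary like the other groups.

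Comparisons between treated groups asked what the form and NLG919 changed. In Lipo-MK1775 against Free-MK1775 limma called Clec3b, higher by 2.70 ± 0.36 with adjusted p = 0.0209, where 3.39% of all genes were called and 0.478% were called higher. Free-MK1775 held 1.052 and 0.457 rescaled FPKM of it, near the floor, so nothing is read from this call. Both libraries lay above both of Free-MK1775 for Dpt, Rarres2, Clec3b and, by symbol, Pdgfrb, 4 of the 10, where 7.52% of all genes did. Clec3b entered the test only through Lipo-MK1775, and Pdgfrb lay below with its assembled transcript. That count is therefore not read against the share. Both lay below for 2 of the 10, where 65.9% of all genes did. The Clec3b call was lost without either Free-MK1775 library (adjusted p = 0.135 and 0.169), without Lipo-MK1775 replicate 1 (0.0776), without either Lipo-MK1775+NLG library (0.0525 and 0.0518) and with a pseudocount of 0.1 (0.0571). With assembled transcripts added, limma also called Dpt, higher by 1.94 (adjusted p = 0.0342), Pdgfra, lower by 1.82 (0.0376), and Pdgfrb, lower by 1.77 (0.0225). In Lipo-MK1775+NLG against Free-MK1775+NLG919 none of the 10 was called, beside 0.0129% of all genes. There 1 gene, Dcn, was higher without overlap (38.7% of all genes) and 2, Fap and Pdgfrb by symbol, were lower (7.93%). Under median-of-ratios scaling Dcn overlapped between these groups, at 59.6 and 77.8 against 34.6 and 60.0. In Free-MK1775+NLG919 against Free-MK1775 none was called and neither was any other gene. An unadjusted p under 0.05 was found for 3 of the 10 (Dcn, Rarres2 and, by symbol, Pdgfrb) and 1657 of all genes. Of the 10, 1 was higher without overlap, Pdgfrb by symbol, where 7.00% of all genes were. With its assembled transcript Pdgfrb overlapped, at 26.4 and 15.2 against 16.0 and 13.7 rescaled FPKM. Clec3b, Dcn, Postn, Rarres2 and Thy1, 5 of the 10, were lower without overlap, where 30.8% were.

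Lipo-MK1775+NLG against Lipo-MK1775 had 3 of the 10 called, all lower, where limma called 5.34% of all genes with 4.60% higher and 0.737% lower. Clec3b fell by 3.49, Rarres2 fell by 2.79 and Dpt fell by 2.50 on the log2(value + 1) scale (SE 0.36, 0.64 and 0.58; adjusted p = 0.0144, 0.0482 and 0.0485 in limma). Clec3b was listed at 0 in both Lipo-MK1775+NLG libraries and entered the test through Lipo-MK1775 alone, so its call is a description. All genes together stood the other way, with a median of 0.75. Both libraries lay below both of Lipo-MK1775 for Fap, Dpt, Rarres2 and Clec3b, 4 of 10 where 7.74% of all genes did so. That count includes Clec3b, whose place was set by the filter. Both lay above for Pdgfra and Pdgfrb, 2 of 10 where 68.6% did. The calls of Rarres2 and Dpt each held in 2 of 10 fits that left out a single library, those without a Free-MK1775+NLG919 library, and that of Clec3b in 8 of 10, being lost without Lipo-MK1775+NLG replicate 1 (adjusted p = 0.185) or replicate 2 (0.11). The highest adjusted p for Rarres2 and for Dpt was 0.255, without Lipo-MK1775+NLG replicate 1. Both calls were also lost with a pseudocount of 0.1 (adjusted p = 0.0502 for Rarres2 and 0.0517 for Dpt), without the filter on low values (0.0896 and 0.0874) and with the replicate block (0.0663 and 0.067). With assembled transcripts added, Pdgfra was called higher by 2.13 (adjusted p = 0.0265) and Pdgfrb by 1.37 (0.0253). Since this comparison and the one against the control share the Lipo-MK1775 libraries, they are not independent of each other.

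Whether NLG919 acted alike under both forms is the interaction of form and NLG919. Clec3b was called, at -2.90 ± 0.50 (adjusted p = 0.0371 in limma, where 21.0% of all genes were called, 19.6% higher and 1.45% lower), and Dpt at -1.75 ± 0.82 was not (adjusted p = 0.124). On the log2(value + 1) scale Free-MK1775 stood only 0.79 above the 0 of the controls for Clec3b, so under the free form it could fall by no more than that, and the sign of its interaction follows from this floor. The median of all genes was 1.12 here and 0.07 under median-of-ratios scaling, which called 47 genes in place of 3249.

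Ratios between 2 of the genes within a library do not depend on how libraries are scaled. With assembled transcripts included, the ratio of Dpt to Postn was 0.364 and 0.757 in Lipo-MK1775 and 0.0417 to 0.0964 in the other 8 libraries. The ratio of Rarres2 to Dcn was 0.297 and 0.324 in Lipo-MK1775+NLG, 2.12 and 1.35 in Lipo-MK1775, and 0.645 and 1.20 in the control. It was 0.728 and 1.04 in Free-MK1775 and 1.02 and 0.260 in Free-MK1775+NLG919, whose second library was the lowest of all. Postn over Pdgfra was 0.314 and 0.625 in Lipo-MK1775+NLG against 1.91 and 1.68 in the control, and no other library was as low. Free-MK1775+NLG919 replicate 2, also of high mitochondrial share, had a Dpt to Postn ratio of 0.0556. In that library transcripts with few exons held 75.5% of the Postn signal, so its ratio is not comparable with the others. The part of the mitochondrial share in these ratios was not tested.

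**Figure D3:**
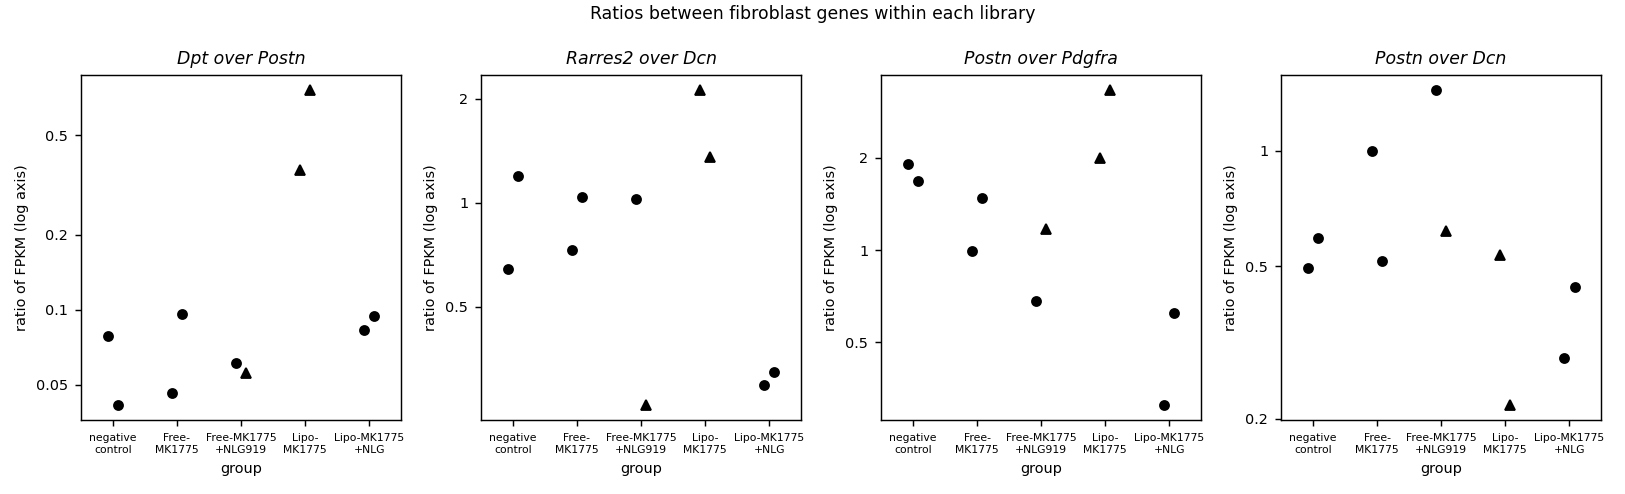
Ratios between pairs of fibroblast genes in each library, with assembled transcripts included (log axes, no unit), by group; triangles are the 3 libraries of high mitochondrial share. Dpt over Postn is highest in both Lipo-MK1775 libraries, at 0.364 and 0.757, and Postn over Pdgfra is lowest in both Lipo-MK1775+NLG libraries, at 0.314 and 0.625.

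The Postn signal came mostly from the transcript without exons 17 and 21 shown above. ENSMUST00000117373 held 58.5% to 71.0% of the summed Postn FPKM in 9 libraries, and an assembled transcript of 20 exons held 14.5% to 36.1% of it. In Free-MK1775+NLG919 replicate 2 the first was listed at 0 and transcripts of 2 to 6 exons held 75.5% of it, against 0.921% to 8.47% in the other libraries. Transcripts of 22 or 23 exons, which carry at least 1 of the exons, held 0% to 16.2%, with values of 0.191% and 14.1% in the Lipo-MK1775 pair. The share of the 21-exon transcript was 63.2% and 61.8% in the control, 59.9% and 69.5% in Lipo-MK1775 and 62.3% and 58.5% in Lipo-MK1775+NLG, so these 3 groups overlapped.

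**Figure D4:**
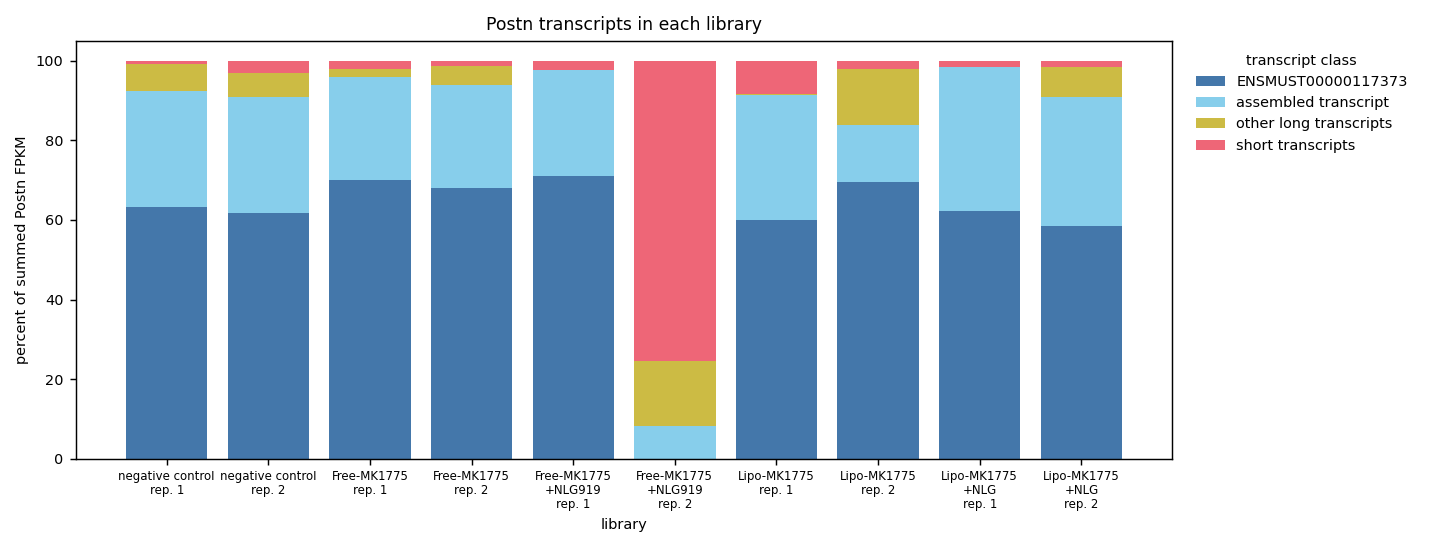
Share of summed Postn FPKM (percent) held by each class of transcript in the 10 libraries, as stacked bars from 0. ENSMUST00000117373, of 21 exons, makes up 58.5% to 71.0% everywhere except in Free-MK1775+NLG919 replicate 2, where transcripts of 2 to 6 exons make up 75.5%.

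Other genes of the same pathways were followed in lists. Among 4 PDGF ligands, Pdgfa was the 1 called in Lipo-MK1775 against the control, lower by 1.63 (adjusted p = 0.0272 in limma), at 19.9 and 21.2 against 58.2 and 74.1 rescaled FPKM. For the lists in this comparison the background is again 19.4% of all genes called lower, with a median of -0.78. Of 12 genes of the TGF-beta pathway, 5 were called lower and none higher, with a median of -1.30. They included the target Ccn2, at 12.9 and 11.6 against 57.2 and 71.2 rescaled FPKM (-2.29, adjusted p = 0.0278), and the ligand Tgfb1 (-1.29, adjusted p = 0.0292). Under median-of-ratios scaling none of the 12 was called. Of 12 contractile and smooth muscle genes tested, 3 were called lower, the tropomyosin Tpm1 (-1.21), Smtn (-1.66) and the caldesmon gene Cald1 (-1.15), a count near that background, while Tagln was at 31.0 and 26.4 against 14.4 and 24.7. Under median-of-ratios scaling none of the 12 was called lower and 1 was called higher.

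Of 21 tested genes of the tumour fibroblast matrix, 3 were called in Lipo-MK1775 against the control, all lower and no larger a share than the 19.4% of all genes: the stroma protease Mmp11 (-2.23), the matrix glycoprotein Tnc (-2.71) and fibronectin, Fn1 (-2.24), with adjusted p = 0.0261, 0.0285 and 0.0315 in limma. Mmp11 alone of these stayed called under median-of-ratios scaling. Among the collagens, Col1a1 was at 88.1 and 125 against 122 and 105 and Col3a1 at 86.7 and 231 against 131 and 85.4 rescaled FPKM, while Col12a1 was at 4.84 and 8.92 against 31.4 and 33.2. None of these 3 passed. In Lipo-MK1775+NLG none of the 21 was called, 18 were lower, and the median was -0.86 where that of all genes was -0.02. Col1a1 was at 54.9 and 69.9, Col3a1 at 45.5 and 59.1, the proteoglycan Bgn at 30.6 and 39.7 against 99.3 and 97.9, and the collagen cross-linking enzyme Lox at 3.71 and 3.38 against 13.8 and 15.1, all lower in both libraries than in both controls.

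Of 14 genes of fibroblasts in healthy tissue, the antioxidant enzyme Gpx3 was called higher in Lipo-MK1775, at 74.8 and 132 against 39.1 and 23.7 rescaled FPKM (1.67, adjusted p = 0.029 in limma), and was called under median-of-ratios scaling too. The collagen Col15a1 (-1.98) and the fibulin Fbln2 (-2.17) were called lower. Pi16, a marker of fibroblasts around vessels, was at 11.3 and 34.6 against 6.43 and 5.63 and did not pass. The median of the 14 was 0.05 beside -0.78 for all genes. Of 12 inflammatory fibroblast genes, the receptor Il1r1 (-1.95) and the chemokine Cxcl1 (-1.53) were called lower, and under median-of-ratios scaling 1 was. In Lipo-MK1775+NLG against Lipo-MK1775, where the median of all genes was 0.75, 4 of the 12 were called. Of all genes, 5.34% were called in that comparison, 4.60% higher and 0.737% lower. Cxcl1 (2.24), Il1r1 (1.498) and the chemokine Ccl2 (1.40) were higher, with adjusted p = 0.031, 0.049 and 0.0494 in limma. The cytokine Il33 was lower by 2.91 (adjusted p = 0.0426), from 30.8 and 101 to 5.51 and 7.82.

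Markers of other cells were followed in Lipo-MK1775 against the control too. Of 7 endothelial genes 6 were called lower, where 19.4% of all genes were, and their summed level was 39.6 and 20.9 against 141 and 101 rescaled FPKM. Cdh5 fell by 2.53 and Tie1 by 1.84, and 1 of the 7 was called lower under median-of-ratios scaling. Of 9 tested pericyte genes Mcam (-2.44) and Abcc9 (-1.13) were called lower, 2 of 9 beside the same 19.4%, and the list summed to 37.9 and 43.4 against 101.0 and 92.6. Under median-of-ratios scaling 1 of the 9 was called. All 7 tested genes of carcinoma epithelium were lower, where 17.2% of all genes were higher. Of the 7, 5 were lower without overlap, near the 67.2% of all genes that were. The tight junction gene Cldn4 was the 1 called lower (-2.50, adjusted p = 0.034 in limma), where 19.4% of all genes were. It was at 0.127 and 1.26 against 8.55 and 7.48 rescaled FPKM. That list summed to 943 and 1474 against 1303 and 1868, and none of it was called under median-of-ratios scaling, where 3 of the 7 were higher. Lists of 6 skeletal muscle, 6 adipocyte, 6 T cell, 6 macrophage, 5 neutrophil and 7 epidermis genes had none called. Adipocyte genes summed to 29.8 and 125 in Lipo-MK1775, with Adipoq listed at 0 in the first library, against 86.0 and 48.0 in the control. Epidermis genes summed to 1237 in negative control replicate 1, 362 in Free-MK1775 replicate 2 and 964 in Lipo-MK1775+NLG replicate 2, and to between 2.29 and 10.8 in the other 7 libraries. All 6 skeletal muscle genes were lower in both Lipo-MK1775 libraries than in both controls, as were 67.2% of all genes, with sums of 15.9 and 44.3 against 255 and 68.5. The Schwann cell list stayed between 0.491 and 3.16. In Lipo-MK1775+NLG all 5 neutrophil genes were higher in both libraries than in both controls, where 20.7% of all genes were, with sums of 2296 and 1789 against 1344 and 959, and none was called. The part of these cells, and of the mitochondrial share, in the Dpt and Clec3b values was not tested.

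To place the fibroblast genes among all others, profiles were compared by the root mean square difference of centred log2 values over the 10 libraries, among 9626 genes. The genes nearest to the mean profile of the 10 were Psmb8, Arrdc4, Batf3 and Cib1, at 0.22 to 0.24, where the median gene was at 0.67. Guk1, Cd2, Pla2g15 and Nme2 followed. A gene that did not vary over the libraries would stand at 0.39 from that mean profile. Nearest to Postn were Nbn at 0.26, Chd2, Mier1, Smndc1 and Nampt, and nearest to Acta2 was Grsf1 at 0.10, then Ap4s1, Bzw2, Wdr55 and Ube2a. An unvarying gene would stand at 0.57 from Postn and at 0.26 from Acta2. None of the other 9 fibroblast genes was among those named, as members were left out of the candidates. Between the 10 themselves the nearest pair was Fap and Acta2, at 0.35, followed by Thy1 and Dcn at 0.43 and Postn and Thy1 at 0.46. Fap and Acta2 were also the genes of smallest SD over the 10 libraries. These libraries share their scaling and the split in mitochondrial share, and the likeness is a description only.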

How the data were processed

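RNA-seq of 10 libraries was analysed. Per the labels, RNA was purified with an RNeasy mini plus kit and sequenced from NEBNext Ultra libraries. The deposited unit is FPKM of single transcripts, which the authors made with HISAT2 and StringTie on build GRCm39 after FastQC and Trim Galore, per the submitters' processing notes, which name no versions. Depth in reads is unknown, and no source used here states a strand setting, so overlapping and antisense genes cannot be told apart.

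Of 161762 transcripts, 21051 had no symbol. FPKM was summed per symbol and rescaled so that everything outside the mitochondrial genome sums to 1000000 per library. A limma 3.58.1 model (R 4.3.3) of log2(value + 1) with trend took all 10 libraries and 5 group means. It tested the 15469 genes at 1 or more in at least 2 libraries, in 8 comparisons and the interaction, two-sided, with Benjamini-Hochberg adjustment over all genes and a threshold of 0.05. All 10 fibroblast genes passed the filter, Clec3b only through Lipo-MK1775. In data simulated for Lipo-MK1775+NLG against the control on 15469 genes, 0% of changes of 1 log2 unit and 43% of changes of 2 log2 units were called. These changes were placed only in genes of higher mean level, so the shares do not cover Dpt, Pdgfrb, Clec3b and Fap.

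The fibroblast genes, the lists and the rules were chosen with earlier results of these data known. Named list genes are those called, at most 4 per list and comparison by smallest unadjusted p, or 2 given as values where none was called. Tagln, Col1a1, Col3a1, Col12a1 and Pi16 were named after their values were seen. Alternatives were FPKM as deposited, median-of-ratios scaling, a pseudocount of 0.1, no filter, adding assembled transcripts to the gene of their locus, a replicate block, only the groups compared, leaving out each library, and leaving out all 3 libraries with a high mitochondrial part. Combining the assembled transcripts with the scaling or with that smaller set was chosen after seeing the data. Replicate numbers did not pair the samples: over 10 pairs of groups the correlation of deviations was -0.20 to 0.07.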

Additional observations from a re-analysis of the deposited data

Results flagged for a closer look

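Clec3b, the tetranectin gene, differed between the forms in its response to NLG919, and was picked out because the interaction itself passed the test. NLG919 moved it by -3.49 under the Lipo form and by -0.59 under the free form on the scale of log2 rescaled FPKM + 1, an interaction of -2.90 ± 0.50 (adjusted p = 0.0371 in limma). It was lower in both Lipo-MK1775+NLG libraries, listed at 0, than in both Lipo-MK1775 libraries, at 13.04 and 7.98, and at 1.052 and 0.457 in Free-MK1775 against 0 and 0.316 in Free-MK1775+NLG919. The gene passed the filter on low values only through Lipo-MK1775 and had to fall from there, while under the free form it could fall by at most 0.79, so the sign of the interaction follows from the floor. The call was lost in 7 of 10 fits that left out a single library, with an adjusted p of up to 0.139, without the filter on low values (0.0668), with the replicate block (0.0534) and with only the groups compared (0.0708). Both Lipo-MK1775 libraries and Free-MK1775+NLG919 replicate 2 are of high mitochondrial share, and the part of that share was not tested. With groups of 2, no library was examined as an outlier of its group.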

How the results depend on the processing

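Counts are of all genes called unless fibroblast genes are named. On FPKM as deposited, limma called 1 gene in Free-MK1775 against the control, 7 in Free-MK1775+NLG919, 5955 in Lipo-MK1775, 5965 in Lipo-MK1775 against Free-MK1775, 1 for NLG919 under the free form and 6764 under the Lipo form, and 2 fibroblast genes in the interaction. Median-of-ratios scaling gave 11, 830 and 0 for Free-MK1775+NLG919, Lipo-MK1775 and Lipo-MK1775+NLG against the control, 138 for Lipo-MK1775 against Free-MK1775 (72 higher, 66 lower, where the reported split was 74 and 450) and 172 for NLG919 under the Lipo form (74 and 98, against 712 and 114). A pseudocount of 0.1 gave 1 gene in Free-MK1775 against the control and 1 for NLG919 under the free form, and 1, 0 and 1 fibroblast genes in Lipo-MK1775 against the control, against Free-MK1775 and in Lipo-MK1775+NLG against Lipo-MK1775. Without the filter there were 20, 27, 822 and 20 genes in the 4 comparisons with the control, 63 and 5 for the Lipo against the free form without and with NLG919, 4 and 51 for NLG919 under the free and the Lipo form, and 1, 1 and 0 fibroblast genes in Lipo-MK1775 against the control, Lipo-MK1775+NLG against Lipo-MK1775 and the interaction.

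Adding assembled transcripts gave 1, 15, 6520 and 0 genes against the control, 4631 and 1 for the Lipo against the free form, 5613 for NLG919 under the Lipo form, and 4, 5 and 2 fibroblast genes in Lipo-MK1775 against Free-MK1775, Lipo-MK1775+NLG against Lipo-MK1775 and the interaction. With median-of-ratios scaling on top, counts were 1, 6 and 0 against the control for the groups other than Lipo-MK1775, 802 and 1 for the Lipo against the free form, with 4 fibroblast genes in the first and 3 in the interaction. Fitting only the groups compared gave 6782 genes in Lipo-MK1775 and 0 in Lipo-MK1775+NLG against the control, 4612 and 1 for the Lipo against the free form, 6565 for NLG919 under the Lipo form, and 3 and 0 fibroblast genes in Lipo-MK1775 against Free-MK1775 and the interaction. Without the 3 libraries of high mitochondrial content there were 1 and 0 genes in Free-MK1775 and Lipo-MK1775+NLG against the control and 2 for NLG919 under the free form, and no value for comparisons with Lipo-MK1775. With assembled transcripts as well, there were 1, 5 and 0 against the control and 1 for the Lipo against the free form with NLG919.

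The replicate block, though the numbers do not pair the samples, gave 1, 2115 and 0 genes in Free-MK1775, Lipo-MK1775 and Lipo-MK1775+NLG against the control, 60 and 1 for the Lipo against the free form, 41 for NLG919 under the Lipo form, and 1, 1 and 0 fibroblast genes in Lipo-MK1775 against the control, Lipo-MK1775+NLG against Lipo-MK1775 and the interaction. The Dpt call in Lipo-MK1775 then had an adjusted p of 0.0531 in limma.

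Leaving out single libraries moved the counts to 1 to 2, 1 to 6421, 1 to 7601 and 0 to 2 against the control, 2 to 6925 and 1 to 6030 for the Lipo against the free form, and 0 to 5669 and 2 to 7370 for NLG919 under the free and the Lipo form. Fibroblast genes called ran from 0 to 0, 0 to 4, 0 to 2 and 0 to 0 against the control, 0 to 3 and 0 to 1 between forms, 0 to 4 under both forms for NLG919, and 0 to 2 in the interaction. The lowest count in Lipo-MK1775 against the control came without either control, and the highest without Free-MK1775+NLG919 replicate 1.

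Over all settings other than leaving out a single library, values of the 10 genes kept direction and side of the threshold in 694 cases, lost a call in 13, gained one in 15 and changed sign in 79; the cause was not tested. Every changed value follows, as a log2 difference. Median-of-ratios scaling changed the sign of Pdgfra (0.15), Postn (0.14), Fap (0.42), Acta2 (0.45), Thy1 (0.39) and Dcn (0.69) in Lipo-MK1775 against the control, and of Postn (0.051), Fap (0.51), Acta2 (0.54) and Thy1 (0.50) against Free-MK1775. It did so for Fap (0.36) and Acta2 (0.41) in Free-MK1775+NLG919 against the control, for Dpt (-0.14) and Rarres2 (-0.15) in Lipo-MK1775+NLG against Free-MK1775+NLG919, for Acta2 (-0.73) and Thy1 (-0.83) with NLG919 under the Lipo form, and for Postn (-1.14), Acta2 (-1.23), Thy1 (-0.48) and Dcn (-0.50) in the interaction. On FPKM as deposited Dcn changed sign in Lipo-MK1775 against Free-MK1775 (-0.23) and with NLG919 under the Lipo form (0.11).

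Assembled transcripts changed the sign of Pdgfrb in Free-MK1775 (0.27), Lipo-MK1775 (-1.499) and Lipo-MK1775+NLG (-0.13) against the control, in Lipo-MK1775 against Free-MK1775 (-1.77) and in the interaction (0.955). They also did so for Clec3b (-0.038) and Postn (-0.040) in Free-MK1775 and for Pdgfra (0.14) and Clec3b (-0.62) in Free-MK1775+NLG919 against the control. With median-of-ratios scaling on top, the changed values against the control were Pdgfrb 0.34 in Free-MK1775, Pdgfra 0.69, Clec3b -0.38, Fap 0.39 and Acta2 0.44 in Free-MK1775+NLG919, Pdgfrb -0.68, Postn 0.12, Fap 0.48, Acta2 0.53, Thy1 0.47 and Dcn 0.78 in Lipo-MK1775, and Pdgfrb -0.097 in Lipo-MK1775+NLG. Between forms they were Pdgfrb -1.02, Postn 0.078, Fap 0.56, Acta2 0.61 and Thy1 0.57 without NLG919 and Dpt -0.15, Thy1 -0.0043 and Rarres2 -0.17 with it. For NLG919 they were Pdgfra 0.10 under the free form, Acta2 -0.80, Thy1 -0.90 and the list gene Tpm1 -0.021 under the Lipo form, and Postn -0.90, Acta2 -1.32, Thy1 -0.58 and Dcn -0.60 in the interaction.

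Without the 3 libraries of high mitochondrial share, the sign changed for Pdgfra (1.39), Fap (0.17) and Acta2 (0.11) in Free-MK1775+NLG919 against the control, for Pdgfra (-0.15), Dpt (-0.29), Thy1 (-0.022) and Rarres2 (-0.63) between the forms given NLG919, and for Pdgfra (0.62) with NLG919 under the free form. With assembled transcripts as well, the Pdgfra values were 1.13, -0.31 and 0.62, Clec3b stood at -0.53 in Free-MK1775+NLG919 against the control, and the other values were as under either setting alone.

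Leaving out single libraries changed a sign in 45 fits of a gene. Against the control the ranges of such genes were, in Free-MK1775, Pdgfrb -0.88 to 0.57, Dpt -0.24 to 0.54, Postn -0.056 to 0.11, Fap -0.28 to 0.0032, Acta2 -0.50 to 0.19 and Rarres2 -1.10 to 0.18, in Free-MK1775+NLG919, Pdgfra -2.51 to 1.39, Fap -0.20 to 0.17 and Acta2 -0.35 to 0.14, and in Lipo-MK1775, Thy1 -1.04 to 0.089 and Dcn -0.92 to 0.57. Between forms they were Fap -0.25 to 0.13, Acta2 -0.58 to 0.10, Thy1 -0.86 to 0.27 and Dcn -0.48 to 1.009 without NLG919, and Pdgfra -0.15 to 3.74, Dpt -0.29 to 0.66, Acta2 -0.41 to 0.012, Thy1 -0.022 to 1.0598 and Rarres2 -0.63 to 1.28 with it. For NLG919 they were Pdgfra -3.27 to 0.62, Fap -0.061 to 0.31 and Acta2 -0.29 to 0.39 under the free form, Acta2 -0.041 to 0.22, Thy1 -0.55 to 0.58 and Dcn -1.14 to 0.35 under the Lipo form, and Postn -0.34 to 0.60, Acta2 -0.30 to 0.38 and Rarres2 -1.84 to 0.065 in the interaction.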
